A study of Mus musculus with 4 samples.

Results

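The acute phase proteins examined here were the products of 10 genes, chosen by symbol: Saa1, Saa2, Saa3, Saa4, Orm1, Orm2, Hp, Lcn2, Crp and Apcs. All 10 were found among the 27179 genes counted in mouse liver, and all 10 passed the filter on low counts that left 15470 genes for testing. Liver RNA was sequenced in 2 libraries from fasted and 2 from non-fasted mice. Mice of both groups were labelled as male wild-type C57BL/6 animals matched for age, with no age given in the sources used here. The fasted mice went without food overnight but kept their water, and the non-fasted mice could eat and drink at any time. Groups were read from the sample titles, because the treatment field of the labels says fasted for each of the 4. Whether a library came from its own mouse is not stated, so each p-value covers the spread between 2 libraries of a group, whether technical or between animals. Over all genes that spread was close to counting error, with a squared deviation per gene of 1.11 (fasted) and 1.13 (non-fasted), where 1 is pure counting error. Over the 10 genes alone the squared deviation was 1.18 (fasted, chi-square test p = 0.299) and 1.88 (non-fasted, chi-square test p = 0.0427). The p-values therefore cannot be read as covering differences between mice.

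Acute phase proteins are plasma proteins that the liver secretes in changed amounts during inflammation, infection or injury. Interleukin-6 acting through STAT3, and interleukin-1 and TNF acting through NF-κB and C/EBPβ, drive most of this response in hepatocytes. The serum amyloid A proteins (Saa1 to Saa4) are apolipoproteins of high-density lipoprotein. Saa1 and Saa2 are the strongly inducible liver forms, Saa3 is made largely outside the liver in the mouse, in macrophages, fat and epithelia, and Saa4 is the constitutive form. The orosomucoids (Orm1 and Orm2), also called α1-acid glycoproteins, carry drugs and lipids in plasma. Haptoglobin (Hp) captures free hemoglobin, and lipocalin-2 (Lcn2) captures the iron-bearing siderophores of bacteria. C-reactive protein (Crp) and serum amyloid P component (Apcs) are pentraxins that bind microbial and dead-cell surfaces, and Apcs, not Crp, is the main inducible pentraxin of the mouse.

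The libraries differed in more than feeding. Counts per library summed to 13541405 and 13528015 in the fasted group and to 36975921 and 36943535 in the non-fasted group. The 14 hepatocyte markers were all detected, and their summed counts lay between 364965 and 367645 in all 4 libraries, which was 2.71% of the counts in each fasted library and 0.994% and 0.988% in the non-fasted libraries. A list of 20 trophoblast markers, genes of the placenta, summed to 0.443 and 0.444 CPM (counts scaled to a library total of 1000000) in the fasted libraries and to 65228 and 65832 CPM in the non-fasted libraries. Decidua markers, genes of the pregnant uterus lining, summed to 149 and 138 CPM in fasted libraries and to 5400 and 5451 CPM in non-fasted libraries. Trophoblast and decidua markers at these levels go against the label of the non-fasted libraries, male liver, so the samples are called by their library labels below. The effects of fasting and of such other RNA cannot be told apart on any scale, single genes beside hepatocyte markers included, and neither can fewer cells of a type and less RNA per cell. Each gene is therefore given by its raw count, by its test after median-of-ratios scaling, which sets the typical gene equal, and by its test with the 14 hepatocyte markers set equal. All log2 fold changes are fasted over non-fasted, a gene was called at a Benjamini-Hochberg adjusted p below 0.05 in edgeR's quasi-likelihood test over all 15470 genes, and errors of fold changes are standard errors (SE).

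Against the typical gene, most acute phase genes were higher in the fasted libraries. Against hepatocyte markers most of them were lower, as were most of all tested genes. After median-of-ratios scaling, 7 of the 10 genes were called higher (Crp, Saa4, Hp, Saa3, Apcs, Orm1 and Saa1), 2 were called lower (Lcn2 and Saa2), and Orm2 did not pass the test. Of all tested genes, 37.2% were called higher and 45% lower in that fit. The median log2 fold change was 1.19 over the 10 genes and -0.13 over all tested genes. With the hepatocyte markers set equal, 9 of the 10 were called lower, all but Saa3, and 0 were called higher by edgeR, also at an unadjusted p below 0.05, since all 10 fold changes were negative. In that fit 92.2% of all genes were called lower and 3.37% higher, so the count of 9 lower is no result about these genes. The medians were -0.73 over the 10 genes and -2.05 over all genes. Scaled to total counts, 6 of the 10 were higher and 4 lower, beside 23% and 62.7% of all genes, and Saa1 and Orm2 joined the lower side. The choice of scaling shifted all fold changes together, so a direction holds only against the named scale.

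**Figure D1:**
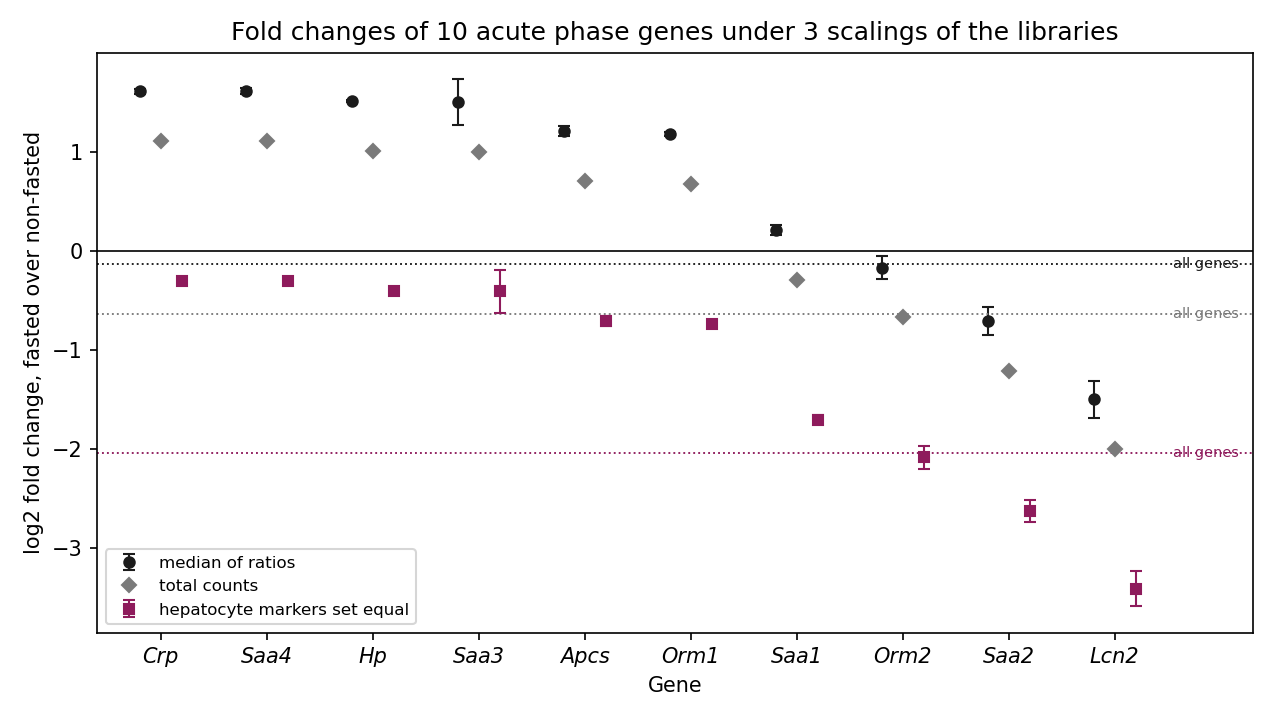
Fasted over non-fasted log2 fold change of the 10 acute phase genes after median-of-ratios scaling (black circles), scaled to total counts (grey diamonds) and with 14 hepatocyte markers set equal (purple squares). Bars are 1 SE, drawn for the first and last scaling, and dotted lines mark the median of all tested genes at -0.13, -0.63 and -2.05. Crp, Saa4, Hp, Saa3, Apcs and Orm1 form an upper group under each scaling, and Lcn2 is lowest under each.

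The order of the genes did not depend on the scaling, since a change of scaling moves all log2 fold changes by nearly the same amount. Lcn2 lay 3.11 log2 units below Crp both after median-of-ratios scaling and with the hepatocyte markers set equal. Ranked among all tested genes by median-of-ratios fold change, Crp and Saa4 stood at the 91.4th percentile, Hp and Saa3 at the 90.0th, Apcs at the 85.8th and Orm1 at the 85.3rd. Saa1 followed at the 61.5th percentile, Orm2 at the 48.7th, Saa2 at the 34.9th and Lcn2 at the 24.7th. Within the upper group the differences between Crp and Saa4, and between Hp and Saa3, were smaller than their standard errors.

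Together the 10 genes gave 50750 and 51047 counts in the fasted libraries, against 73193 and 72677 in the non-fasted libraries. This was 0.375% and 0.377% of the fasted counts and 0.198% and 0.197% of the non-fasted counts. Per 1000 hepatocyte marker counts, the sum was 138.0 and 139.3 in fasted libraries and 199.2 and 199.1 in non-fasted libraries. The acute phase genes thus took a larger share of the fasted libraries and stood lower beside the hepatocyte markers, as most tested genes did. Because hepatocyte marker counts were nearly equal in all 4 libraries, raw counts can be read side by side on the hepatocyte scale.

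**Figure D2:**
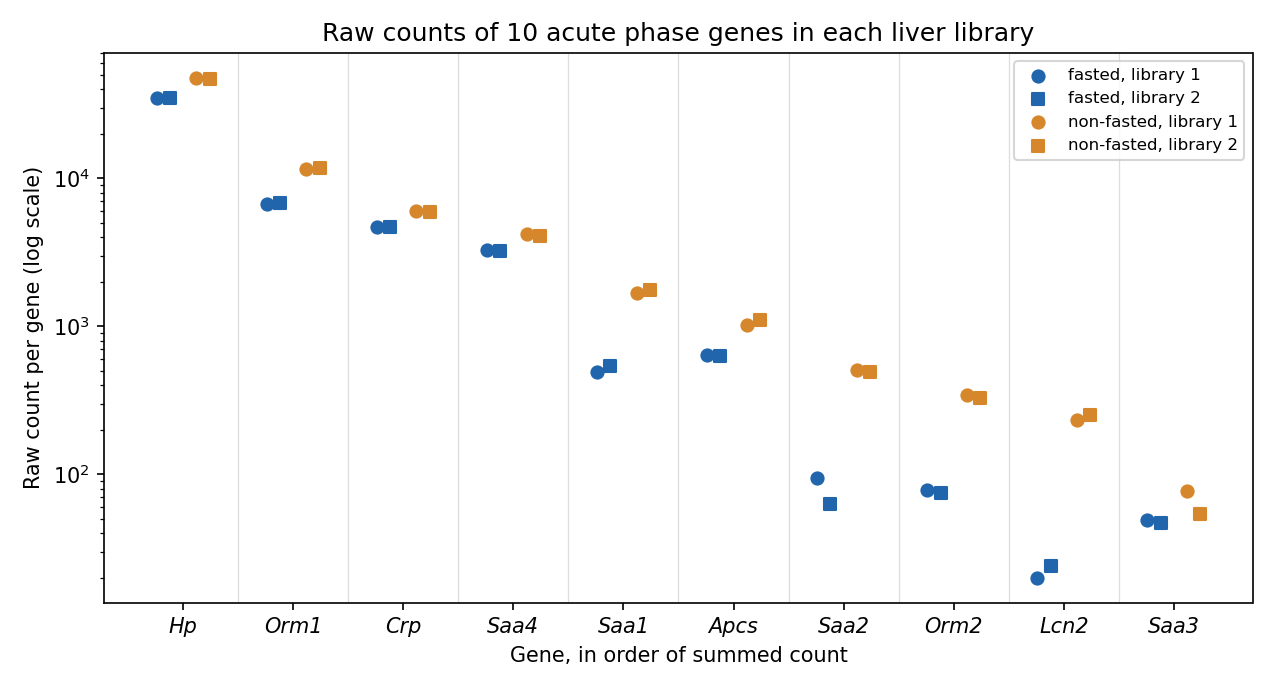
Raw counts of the 10 acute phase genes in each of the 4 libraries, on a log axis, ordered by summed count, with fasted libraries in blue and non-fasted libraries in orange. Every gene has lower raw counts in both fasted libraries than in both non-fasted libraries, with the smallest gap for Saa3 (49 and 47 against 77 and 54) and the widest for Lcn2 (20 and 24 against 233 and 250). On the hepatocyte scale, to which raw counts are close here, 92.2% of all tested genes were called lower, so lower counts are not particular to these 10.

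Haptoglobin dominated the group. Hp (Entrez gene 15439) had 34670 and 34912 counts in the fasted libraries, against 47641 and 46994 counts in the non-fasted ones. It ranked 43rd among all genes by count in both fasted libraries, against 86th and 88th in the non-fasted libraries, and supplied 68.3% and 68.4% of the counts of the 10 genes in fasted libraries and 65.1% and 64.7% in non-fasted libraries. Corrected for transcript length, its level was 1904 and 1919 CPM per kilobase in fasted libraries and 958 and 946 CPM per kilobase in non-fasted libraries, above the other 9 genes in every library. Next on this scale came Orm1 at 641 and 653 CPM per kilobase in fasted libraries and 402 and 410 in non-fasted libraries. Lcn2 was lowest in the fasted libraries, at 1.61 and 1.94 CPM per kilobase, and Saa3 was lowest in the non-fasted libraries, at 3.75 and 2.63.

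Hp averaged 68476 ± 520 normalized counts in fasted libraries and 24041 ± 220 in non-fasted libraries (SD, n = 2 each). Its log2 fold change was 1.51 (SE 0.012, adjusted p = 2.6e-15, edgeR's quasi-likelihood test with the deviance computed exactly), and the libraries of the 2 groups did not overlap. With hepatocyte markers set equal, Hp was 1.33-fold lower, at a log2 fold change of -0.41 (SE 0.016, adjusted p = 1.3e-33, edgeR's quasi-likelihood test with the deviance computed exactly). Haptoglobin bound to hemoglobin is taken up through CD163 on macrophages and its heme is degraded by heme oxygenase-1. Cd163 had 143 and 123 counts in fasted libraries and 240 and 201 counts in non-fasted libraries, and its log2 fold changes were 1.22 after median-of-ratios scaling and -0.69 on the hepatocyte scale. Hmox1, which encodes heme oxygenase-1, had 242 and 246 counts in fasted libraries and 5659 and 5494 in non-fasted libraries, and it was lower under both scalings, by log2 fold changes of -2.56 and -4.48.

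Of the 4 serum amyloid A genes, Saa4, Saa3 and Saa1 were called higher and Saa2 lower after median-of-ratios scaling, and Saa4 had the highest counts. Saa4 (Entrez gene 20211) had 3276 and 3226 counts in fasted libraries and 4186 and 4060 in non-fasted libraries. The fasted libraries averaged 6398 ± 52.4 normalized counts and the non-fasted libraries 2095 ± 44.2 (SD, n = 2 each), a log2 fold change of 1.61 (SE 0.029, edgeR adjusted p = 8.9e-11). On the hepatocyte scale it was -0.31 (SE 0.034), a 1.24-fold lower level in the fasted libraries.

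Saa1 (Entrez gene 20208) had 489 and 538 counts in the fasted libraries, against 1682 and 1756 counts in the non-fasted ones. Its normalized counts were 1011 ± 70.9 in fasted libraries and 873 ± 27.0 in non-fasted libraries (SD, n = 2 each), with a log2 fold change of 0.21 (SE 0.054, edgeR adjusted p = 0.0057). This small rise was called only narrowly. It was lost without fasted library 2 (0.17, adjusted p = 0.0868) and without non-fasted library 1 (0.17, adjusted p = 0.1002), both by edgeR, and with other filters on low counts, and it turned to -0.29 when libraries were scaled to total counts. With hepatocyte markers set equal, Saa1 was 3.26-fold lower in fasted libraries (log2 fold change -1.71, SE 0.047, edgeR adjusted p = 2.2e-23).

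Saa2 (Entrez gene 20209) had 94 and 63 counts in the fasted libraries, against 509 and 488 in the non-fasted ones. It was lower under every scaling tried. After median-of-ratios scaling the log2 fold change was -0.71 (SE 0.14, edgeR adjusted p = 0.0013), a call that was lost without non-fasted library 1 (-0.69, edgeR adjusted p = 0.0648). On the hepatocyte scale Saa2 was 6.19-fold lower in fasted libraries, at a log2 fold change of -2.63 (SE 0.11). The fasted libraries differed from each other more for Saa2 than for any other of the 10 genes, relative to counting error.

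Saa3 (Entrez gene 20210) was scarce, with 49 and 47 counts in fasted libraries and 77 and 54 counts in non-fasted libraries. Its log2 fold change was 1.50 (SE 0.23, edgeR adjusted p = 2.6e-04) after median-of-ratios scaling. On the hepatocyte scale it was -0.41 (SE 0.22, edgeR adjusted p = 0.0722), and with the deviance computed exactly the adjusted p there was 0.0471, so the call rests on the form of the test. As background, Saa3 is a gene of macrophages. Kupffer cells are the resident macrophages of the liver. The 14 markers of macrophages and Kupffer cells summed to 581 and 566 CPM in fasted and 1137 and 1138 CPM in non-fasted libraries. In either group, 0 of the 14 were at 0. Most of the non-fasted sum was Csf1r and Cd68. Csf1r had 836 and 786 counts in fasted and 24951 and 24953 in non-fasted libraries, and Cd68 100 and 107 against 9701 and 9883. Scaled to total counts, 12 of the 14 were called higher and 2 lower, beside 23% and 62.7% of all genes. After median-of-ratios scaling 12 of the 14 were called higher and 2, Csf1r and Cd68, lower, beside 37.2% and 45% of all genes, and on the hepatocyte scale 4 were higher and 8 lower, beside 3.37% and 92.2%. Clec4f, found in Kupffer cells, had 1162 and 1149 counts in fasted libraries and 1129 and 1132 counts in non-fasted libraries. The part of these cells in the Saa3 level was not tested.

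Saa1 and Saa2 lie head to head on chromosome 7 and are near-identical, so their counts may be split unevenly by the handling of reads that match both, which is not given in the sources used here. Their transcripts in GENCODE M21 (609 and 606 bases) matched at 93.9% of aligned positions, with a longest shared run of 99 bases. RefSeq also lists each of the 2 symbols as an older name of the other gene, and the Entrez numbers above fix which is meant here. Within a library, the Saa2 share of their summed counts does not depend on scaling. It was 16.1% (Wilson 95% interval 13.4 to 19.3%) and 10.5% (8.28 to 13.2%) in the fasted libraries, against 23.2% (21.5 to 25.0%) and 21.7% (20.1 to 23.5%) in the non-fasted libraries. The share was thus lower in both fasted libraries than in both non-fasted libraries. The intervals, which cover counting error only, did not overlap between the groups. Those of the 2 fasted libraries did not overlap each other either, so their separation does not measure a difference between groups.

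The promoters of Saa1, Saa2, Orm2 and Lcn2 are printed because these 4 genes had the lowest log2 fold changes on the hepatocyte scale. Each window runs from 250 bases before to 50 bases after the start site, 5′ to 3′ on the strand of the gene, and comes from RefSeq on GRCm38.p6, whereas the counts were made on GRCm39. Capitals mark matches to TTNNGNAA on either strand, a short form of the site of C/EBP factors. The windows are chr7:46742931-46743230 (minus strand) for Saa1, chr7:46751583-46751882 (plus strand) for Saa2, chr4:63362199-63362498 (plus strand) for Orm2 and chr2:32387690-32387989 (minus strand) for Lcn2.
Saa1: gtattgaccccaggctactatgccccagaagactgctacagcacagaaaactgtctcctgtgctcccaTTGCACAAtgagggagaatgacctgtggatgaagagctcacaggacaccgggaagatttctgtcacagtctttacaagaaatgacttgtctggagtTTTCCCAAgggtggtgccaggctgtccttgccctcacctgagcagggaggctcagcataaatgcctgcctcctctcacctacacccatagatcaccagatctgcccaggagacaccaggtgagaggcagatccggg
Saa2: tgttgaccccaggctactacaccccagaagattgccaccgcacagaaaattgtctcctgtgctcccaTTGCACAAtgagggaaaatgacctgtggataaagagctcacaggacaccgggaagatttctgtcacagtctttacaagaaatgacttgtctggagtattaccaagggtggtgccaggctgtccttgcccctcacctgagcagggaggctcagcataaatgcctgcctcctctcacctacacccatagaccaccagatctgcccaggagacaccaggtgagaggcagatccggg
Orm2: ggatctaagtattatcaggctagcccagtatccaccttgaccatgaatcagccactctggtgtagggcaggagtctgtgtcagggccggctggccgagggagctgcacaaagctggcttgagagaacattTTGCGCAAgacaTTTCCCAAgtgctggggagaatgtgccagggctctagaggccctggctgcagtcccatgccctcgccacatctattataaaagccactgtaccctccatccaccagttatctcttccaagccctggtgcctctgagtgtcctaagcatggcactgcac
Lcn2: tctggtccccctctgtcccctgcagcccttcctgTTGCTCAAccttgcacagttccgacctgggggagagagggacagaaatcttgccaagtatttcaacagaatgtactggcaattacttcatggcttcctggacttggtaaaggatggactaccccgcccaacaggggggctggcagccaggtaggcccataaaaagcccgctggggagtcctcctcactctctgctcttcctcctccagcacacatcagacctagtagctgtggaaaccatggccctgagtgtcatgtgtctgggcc

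The Saa1 and Saa2 windows were 95.3% identical over 301 aligned positions, 287 of them the same base. Both held a C/EBP match beginning at base -182 in Saa1 and base -183 in Saa2, counted from the start site. Saa1 held another at base -86 that was not found in Saa2. Of the 10 genes, 8 had a window in the RefSeq table, and 7 of these 8 held at least 1 match to TTNNGNAA, against 40.7% of all 32851 windows. Apcs was the member without a match, and it was the only one of the 8 windows with TTCNNNGAA, a STAT site form found in 8.30% of all windows. A TATA box, TATAAA, was found in Crp and Orm2 and in 13.6% of all windows. None of the 8 windows held the NF-κB form GGANTTTCC (1.25% of all windows). All motifs were searched on both strands. C/EBP matches stood in genes with small as well as large differences on the hepatocyte scale, such as Saa4 and Lcn2, and a match is only a description of these letters.

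Of the orosomucoids, Orm1 was called higher after median-of-ratios scaling and Orm2 did not pass the test. Orm1 (Entrez gene 18405) had 6725 and 6851 counts in fasted libraries and 11509 and 11730 counts in non-fasted libraries. After median-of-ratios scaling, fasted libraries had 13360 ± 211 and non-fasted libraries 5904 ± 82.4 normalized counts (SD, n = 2 each), at a log2 fold change of 1.18 (SE 0.025, edgeR adjusted p = 2.1e-10). It was 1.67-fold lower on the hepatocyte scale, at -0.74. Orm2 (Entrez gene 18406), with 78 and 75 counts in fasted libraries and 341 and 326 in non-fasted libraries, did not pass the first test (-0.17, SE 0.11, edgeR adjusted p = 0.204). With hepatocyte markers set equal it was 4.25-fold lower in fasted libraries, at -2.09 (SE 0.12). Orm2 made up 1.15% and 1.08% of the summed Orm1 and Orm2 counts in fasted libraries and 2.88% and 2.70% in non-fasted libraries. The Wilson intervals of the groups (0.920 to 1.43% and 0.865 to 1.36%, against 2.59 to 3.19% and 2.43 to 3.01%) did not overlap, but they cover counting error only. The Orm1 and Orm2 transcripts, 775 bases each, were 91.0% identical, so reads shared by the pair make the Orm2 count uncertain. The third gene of the family, Orm3, had 20 and 18 counts in fasted libraries and 65 and 78 in non-fasted libraries.

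**Figure D3:**
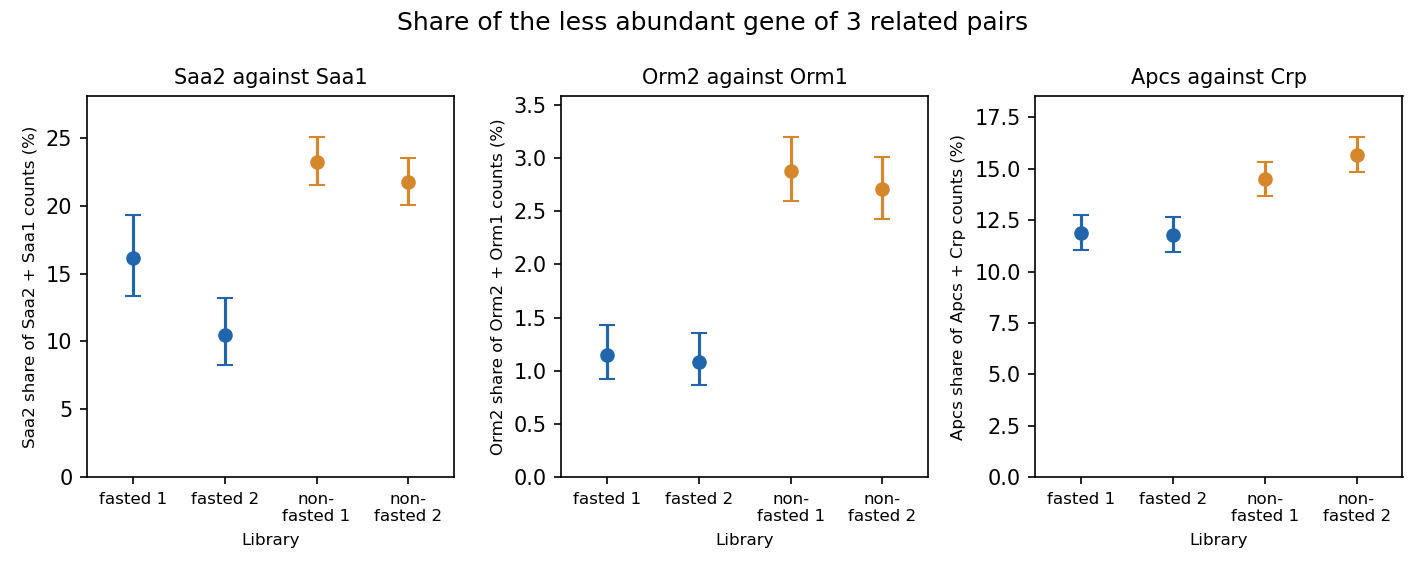
Share of the less abundant gene in the summed raw counts of 3 related pairs, in percent, in each library, with fasted libraries in blue and non-fasted libraries in orange. Points are single libraries and bars are Wilson 95% intervals, which cover counting error only. For Saa2, Orm2 and Apcs alike, both fasted libraries lie below both non-fasted libraries. No other pairs of genes were measured for comparison.

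The pentraxins were higher in fasted libraries against the typical gene and lower against hepatocyte markers. Crp (Entrez gene 12944) had 4714 and 4686 counts in fasted libraries and 5999 and 5920 counts in non-fasted libraries. Its log2 fold change of 1.61 (SE 0.027, edgeR adjusted p = 4.8e-11) matched that of Saa4, and on the hepatocyte scale Crp was 1.24-fold lower, at -0.31 (SE 0.033). Apcs (Entrez gene 20219), the inducible pentraxin of the mouse, had 635 and 625 counts in fasted libraries and 1016 and 1099 counts in non-fasted libraries. Its log2 fold changes were 1.21 (SE 0.053, edgeR adjusted p = 3.9e-08) after median-of-ratios scaling and -0.71 (SE 0.050) on the hepatocyte scale. The Apcs share of the summed Crp and Apcs counts was 11.9% (11.0 to 12.8%) and 11.8% (10.9 to 12.7%) in fasted libraries and 14.5% (13.7 to 15.3%) and 15.7% (14.8 to 16.5%) in non-fasted libraries (Wilson 95% intervals). In all 3 pairs the less abundant gene took a smaller share in fasted than in non-fasted libraries. As log2 fold change of the less abundant minus that of the more abundant gene, this was -0.92 for Saa2 and Saa1, -1.35 for Orm2 and Orm1 and -0.40 for Apcs and Crp. These differences in share were not tested between groups, and no share was taken for other pairs of genes. Since 37.2% of all genes were called higher and 45% lower, the separation of 3 chosen pairs is no result about related genes.

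Lipocalin-2 was the gene with the lowest fold change under every scaling. Lcn2 (Entrez gene 16819) had 20 and 24 counts in the fasted libraries, against 233 and 250 counts in the non-fasted ones. After median-of-ratios scaling, fasted libraries had 43.3 ± 5.68 and non-fasted libraries 123 ± 6.17 normalized counts (SD, n = 2 each), and the log2 fold change was -1.50 (SE 0.19, edgeR adjusted p = 7.0e-05). On the hepatocyte scale the fasted libraries were 10.7-fold lower, at -3.41 (SE 0.18, edgeR adjusted p = 1.2e-16). Lcn2 is also stored in neutrophil granules and made by epithelia, the uterus among them. The 13 neutrophil markers summed to 6.13 and 7.76 CPM in fasted and 154 and 155 CPM in non-fasted libraries, with 5 of the 13 at 0 in both fasted libraries. Most of the non-fasted sum was S100a8 (9 and 21 counts in fasted, 4160 and 4276 in non-fasted libraries) and Cxcr2 (2 and 3, against 985 and 930). Mmp9 (8 and 8, against 181 and 164), S100a9 (33 and 35, against 152 and 194) and Csf3r (25 and 30, against 96 and 87) also had more counts in the non-fasted libraries. Mpo had 0 and 0 counts in fasted and 1 and 1 in non-fasted libraries, Elane 2 and 5 against 2 and 1, and Ly6g 0 and 0 against 2 and 0. The part of neutrophils in the Lcn2 level was not tested. Markers of the uterine epithelium summed to 211 and 213 CPM in fasted and 1126 and 1126 CPM in non-fasted libraries. Most of the sum in each library was Krt8 and Krt18. Krt8 had 1194 and 1315 counts in fasted libraries and 14060 and 13900 in non-fasted libraries, and Krt18 1142 and 1072 against 13608 and 13599. Foxa2 had 496 and 459 against 266 and 264, and Prss28 had no count in any library. Of 9 tested, 8 were lower and Foxa2 higher under both scalings, beside 45% and 37.2%, and 92.2% and 3.37%, of all genes. The part of these markers in the Lcn2 level was likewise not tested. Slc22a17, a receptor for Lcn2, had 11 and 13 counts in fasted libraries and 961 and 955 in non-fasted libraries, and was lower by log2 fold changes of -4.36 and -6.27 under the 2 scalings.

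Other positive acute phase proteins were taken from a list of genes named as rising in inflammation, and no member was checked for such a rise in mouse liver. Of 27 such genes, 20 were called higher, 5 lower (A2m, Mt2, Mt1, Cd14 and Lbp) and 2 did not pass the test after median-of-ratios scaling, with a median log2 fold change of 1.63, beside 37.2% higher and 45% lower among all genes. With hepatocyte markers set equal, 5 were higher and 21 lower, with a median of -0.28, beside 3.37% and 92.2% of all genes. The most abundant, Serpina1e, an α1-antitrypsin, changed by 1.69 on the first scale and -0.22 on the second, and its close paralogs may share reads. Vnn1, a pantetheinase, stood apart, at 2.95 after median-of-ratios scaling and 1.03 on the hepatocyte scale. The metallothioneins, which bind zinc, were far lower in fasted libraries under both scalings. Mt1 had 166 and 184 counts in fasted libraries and 14397 and 14557 in non-fasted libraries, and Mt2 had 48 and 44 against 16115 and 16653. The protease inhibitor A2m had 0 and 2 counts in fasted libraries and 25659 and 25866 counts in non-fasted libraries, and Cd14, a lipopolysaccharide co-receptor, had 36 and 45 against 441 and 421. The trophoblast and decidua markers given above likewise summed far higher in the non-fasted libraries, and their part in these genes was not tested.

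Negative acute phase proteins, whose synthesis falls in inflammation, all rose against the typical gene. All 13 were called higher after median-of-ratios scaling and 0 lower, also at an unadjusted p below 0.05 since every fold change was positive, with a median of 1.80, beside 37.2% higher and 45% lower among all genes. On the hepatocyte scale 4 were higher, 8 lower and 1 did not pass the test, with a median of -0.12, beside 3.37% and 92.2%. The 4 were Igf1, the growth factor of the liver, at 0.51, the apolipoprotein Apoa1 at 0.21, the retinol carrier Rbp4 at 0.20 and the thyroxine carrier Serpina7 at 0.19. Albumin (Alb), with 927901 and 928276 counts in fasted libraries and 1066415 and 1061151 in non-fasted libraries, was at 1.76 on the first scale and -0.16 on the second. Against the same hepatocyte markers, the medians were therefore -0.12 for the negative list, -0.28 for the other positive list and -0.73 for the 10 genes, beside -2.05 for all genes, and the lists were compared by these values only.

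**Figure D4:**
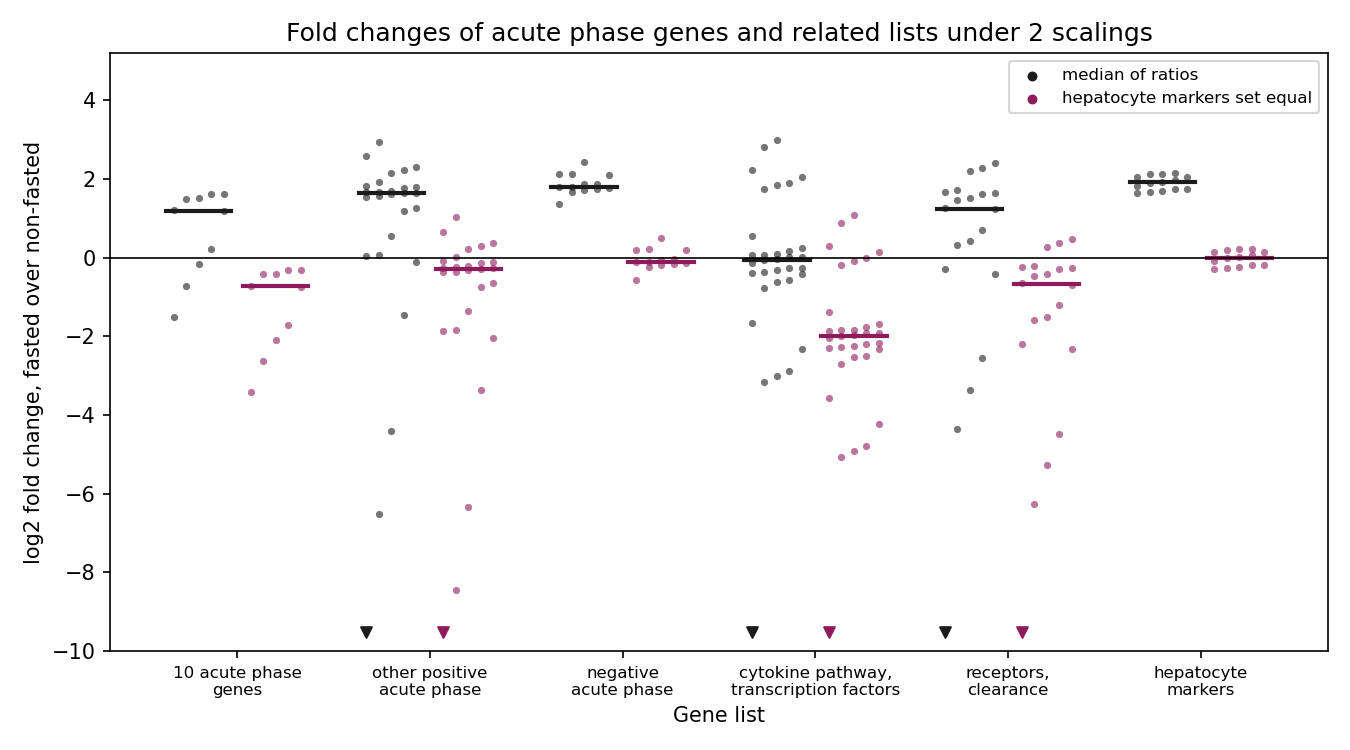
Fasted over non-fasted log2 fold change of each tested gene of 6 lists after median-of-ratios scaling (black) and with 14 hepatocyte markers set equal (purple). Points are genes and bars medians, and triangles at the lower edge mark A2m, Lif and Ltf, whose fasted counts of 0 to 2 allow no fold change. The median of the 10 acute phase genes is 1.19 in black and -0.73 in purple, and the 4 genes at the lower end of that list are Saa1, Orm2, Saa2 and Lcn2.

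The pathway that induces acute phase genes was measured through 35 cytokines, receptors, signaling proteins and transcription factors, of which 33 were tested. After median-of-ratios scaling 10 were higher and 16 lower, at a median of -0.06, beside 37.2% and 45% of all genes. With hepatocyte markers set equal 4 were higher and 27 lower, at a median of -1.98, beside 3.37% and 92.2%, and with total counts 7 were higher and 25 lower, beside 23% and 62.7%. As a group, the list was close to the median of all genes (-0.13 and -2.05 on the first 2 scales). Interleukin-6 itself (Il6) had 0 and 1 counts in fasted libraries and 15 and 13 counts in non-fasted libraries, which was too few for the filter. Osmr, the oncostatin M receptor, had 32 and 32 counts in fasted libraries and 1078 and 1135 counts in non-fasted libraries and was lower by -3.16 (SE 0.11) on the first scale. Cebpb, the C/EBP factor of the acute phase, had 140 and 135 counts in fasted libraries and 2667 and 2645 in non-fasted libraries, with log2 fold changes of -2.32 (SE 0.054, edgeR adjusted p = 4.8e-10) and -4.23 on the 2 scales. Among the transcription factors, Foxa1, Foxa2 and Hnf4a were higher under both, whereas Cebpa, with 3486 and 3551 counts in fasted and 3800 and 3850 in non-fasted libraries, was at 1.83 and -0.08. Foxa1 was at 2.99 and 1.07, Foxa2 at 2.80 and 0.89, and Hnf4a, which was also among the 14 hepatocyte markers, at 2.06 and 0.14. The most abundant of the list, the receptor subunit Lifr, had 5747 and 5777 counts in fasted libraries and 23324 and 23280 in non-fasted libraries, and its log2 fold changes were -0.06 and -1.98.

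Of 22 receptors and clearance partners of these proteins, 20 were tested. After median-of-ratios scaling 13 were higher and 5 lower, at a median of 1.24, beside 37.2% and 45% of all genes. On the hepatocyte scale 2 were higher and 16 lower, at a median of -0.67, and since 92.2% of all genes were lower there, that count is no result about these genes. Tlr4, a receptor for serum amyloid A and lipopolysaccharide, had 18 and 17 counts in fasted libraries and 727 and 664 counts in non-fasted libraries, and was lower on both scales (-3.36 and -5.27). Cd36, a scavenger receptor that binds serum amyloid A, had 953 and 932 counts in fasted libraries and 710 and 675 in non-fasted libraries, and was higher on both (2.40 and 0.48). Lrp1, the clearance receptor of many plasma proteins, had 11779 and 11663 counts in fasted libraries and 34003 and 33935 in non-fasted libraries, at 0.42 and -1.50. The lactoferrin gene Ltf, also a neutrophil and uterine marker, had no count in fasted and 65 counts in each non-fasted library.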

How the data were processed

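Bulk RNA sequencing of mouse liver was available for 2 fasted and 2 non-fasted libraries. The authors deposited raw counts per gene by Entrez identifier, with no normalization. Per the submitters' processing notes, the tools included STAR, featureCounts, Trimmomatic and DESeq2 1.32.0, with FastQC and MultiQC, and the builds GRCm39 and mm39. The sources used here give no strand setting and no rule for reads that match several genes. Symbols came from the RefSeq table of GRCm38.p6, in which 1904 of 27179 identifiers had no name.

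The 10 genes, the lists and the tests were chosen with earlier results of these data known. Low counts were removed by filterByExpr with default settings, which left 15470 genes. After median-of-ratios scaling, these were tested two-sided with edgeR 4.0.16 (glmQLFit and glmQLFTest, R 4.3.3) with Benjamini-Hochberg adjustment over all of them at 0.05. A standard error is the size of the fold change over the square root of F. Where stated, the negative binomial deviance was computed exactly, since edgeR's own is inexact for abundant genes at the common biological coefficient of variation of 0.00988 found here. For normalized counts, each raw count was divided by its library's size factor. For hepatocyte scaling, the size factors were taken over 14 hepatocyte markers, which ranged from -0.28 to 0.23 in log2 fold change under their own scaling. DESeq2 1.42.0 and limma-voom (limma 3.58.1) were run as alternatives with those listed in the closing section. Between libraries of 1 group the squared deviation per gene, where 1 is pure counting error, was 1.11 (fasted, 12319 genes) and 1.13 (non-fasted, 16086 genes). Wilson intervals cover counting error only. All 10 genes are named, and from each other list up to 4 genes against its majority, the 4 with the largest change at a mean of at least 10 CPM and the most abundant. Genes named outside this rule (Cd163, Cebpa, Clec4f, Csf1r, Cd68, Il6, Krt8, Krt18, Lbp, Lif, Orm3, Prss28 and the neutrophil markers) were chosen after their values were seen. A gene that this rule selects is not reported here by name. CPM per kilobase uses the length of the lowest-numbered protein-coding transcript in GENCODE M21. The fit was tested on simulated counts. These had the same composition in both groups apart from sampled genes, so that test does not bear on the choice of scaling. Windows were searched and sequences aligned with Python 3.11.15 and Biopython 1.88, and figures were drawn with matplotlib 3.10.9.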

Additional observations from a re-analysis of the deposited data

How the results depend on the processing

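TMM and upper quartile scaling, DESeq2, limma-voom, the exact deviance, thinning to 13528015 counts, leaving out the 20 most abundant genes and the replicate block each left the calls of all 10 acute phase genes as they were. Same-numbered libraries did not deviate together (correlation -0.017 over 10773 genes). Since these deviations were close to counting error, this cannot exclude a pairing. With the replicate block 7 of the 10 were higher and 2 lower, as without it. Of all genes, 3551 were higher with total counts, 522 with hepatocyte markers set equal, 3714 and 1648 at a fixed coefficient of variation of 0.2 and 0.4, and 2273 at a minimum fold of 2. Those lower were 9694 with total counts, 14260 with hepatocyte markers set equal, 3691 at a coefficient of variation of 0.4 and 3990 at a minimum fold of 2. Of the 10 genes, 0 were higher with hepatocyte markers set equal and 4 at a coefficient of variation of 0.4. Those lower were 4 with total counts, 9 with hepatocyte markers set equal, and 1 each at a coefficient of variation of 0.4 and at a minimum fold of 2. Leaving out single libraries gave 6 to 7 higher and 1 to 2 lower, with Saa1 lost without fasted library 2 and both Saa1 and Saa2 lost without non-fasted library 1. Turned round were Saa1 with total counts (-0.29) and, with hepatocyte markers set equal, Saa1 (-1.71), Saa3 (-0.41), Saa4 (-0.31), Orm1 (-0.74), Hp (-0.41), Crp (-0.31) and Apcs (-0.71), which follows from the size factors alone. Saa1 also lost its call with no filter on low counts (0.18, edgeR adjusted p = 0.0753) and with at least 10 counts in every library (0.080, adjusted p = 0.139), and at coefficients of variation of 0.1, 0.2 and 0.4, where its fold change stayed at 0.21, and the cause was not tested. Orm2 passed as lower with at least 10 counts in every library (-0.30, edgeR adjusted p = 0.0356). Depth limits Lcn2, Saa2, Saa3 and Orm2 most, with under 100 counts in each fasted library.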
